A study of Mus musculus with 27 samples.

Results

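Cytosolic ribosomal protein genes were compared among 9 inbred mouse strains, in right lungs taken from females at 11 weeks of age. The members were every named gene of the array table whose symbol is Rpl or Rps followed by a digit, or Rpsa, Rplp0, Rplp1 or Rplp2. Symbols with -ps, which mark pseudogenes, and the S6 kinases (Rps6k) were left out. The choice used names and no measured value. It gave 45 genes among the 20239 probe sets with 1 gene symbol, in a table of 21225 probe sets. Of the 45, 34 (75.6%) were canonical ribosomal proteins, with 16 in the large subunit, 3 in its stalk and 15 in the small subunit. Canonical genes without such a probe set, among them Rpl3, were not covered. Statements on the family or a subunit hold for the covered genes only. The other 11 were paralogues, retrocopies or other genes that the name rule also takes.

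Total RNA was hybridised to Mouse Gene 1.0 ST arrays, which read each gene with several short probes along its length. There were 27 arrays, 3 per strain, and no treatment was given in the labels. The labels give each strain a class for spontaneous pulmonary adenoma, a benign lung tumour, rather than a finding in the sampled lungs. In KK/HlJ and MRL/MpJ both the severity and the frequency of adenoma were classed as decreased. In A/J, C57BL/6J and DBA/2J both were classed as increased. In C57L/J, 129S1/SvlmJ, C3H/HeJ and BALB/cJ the severity was classed as increased and the frequency as decreased. The labels do not say that the 3 samples of a strain came from separate mice, so the p-values measure the spread between these samples. An inbred strain is 1 genotype, and a value for a strain holds for that genotype only.

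The arrays resembled their own strain in 26 of 27 cases, with correlations of 0.984 to 0.997 within strains. The surfactant gene Sftpc was high in every strain, from 13.07 to 13.31 on the log2 scale. So was the club cell gene Scgb1a1, from 12.76 to 12.95. Not every lung marker was as high or as even. Foxj1 ran from 7.24 in 129S1/SvlmJ to 7.72 in C57BL/6J, and Marco from 5.37 in C57L/J to 7.45 in 129S1/SvlmJ. H2-Ea, a class II histocompatibility gene that is silent in strains of the b haplotype, was at 4.79 in C57BL/6J and at 11.17 in the arrays labelled C57L/J, a strain that is also known to carry that haplotype. The library C3H/HeJ replicate 2 had a mean level of 9.43 over 8 skeletal muscle markers, against 5.50 and 5.22 in the other C3H/HeJ libraries, and of 8.56 over 7 adipocyte markers, against 6.12 and 6.42. The F-test, pair, strain and adenoma-class counts of members were therefore also computed without the arrays labelled C57L/J and without that C3H/HeJ library. Without either, 0 members were called by adenoma class, and the strain counts changed only in MRL/MpJ and DBA/2J (without C57L/J) and in MRL/MpJ and C3H/HeJ (without the library), as given with those strains. Array run numbers ran strain by strain, except for MRL/MpJ replicate 3, so run order and strain cannot be told apart.

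A ribosome is built of a small subunit, which reads the messenger RNA, and a large subunit, which joins amino acids; each ribosomal protein is needed in about the same number of copies. In mammals most of their transcripts begin with a C followed by a run of pyrimidines, the terminal oligopyrimidine tract, through which the mTOR pathway controls their translation. Mammalian genomes hold many processed copies of these genes, most of them pseudogenes, and a few expressed paralogues with narrow tissue ranges.

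The sequences around the annotated starts show that tract and the members in which the annotated start lacks it. RefSeq promoter windows (GRCm38.p6) matched 37 of the 45 members by symbol. Each line gives 30 bases on the gene's own strand, 5′ to 3′, and the capitals mark a run of C and T that begins with C at the annotated start and holds at least 4 further pyrimidines. Rps6 (chr4:86857353-86857382, minus strand), Rpl14 (chr9:120571502-120571531, plus strand) and Rps10 (chr17:27635230-27635259, minus strand) are shown because they carry the run and differed among strains. Rps2 (chr17:24720048-24720077, plus strand) and Rpl26 (chr11:68901551-68901580, plus strand) are shown because they differed among strains and have no such run. Rps27 (chr3:90213634-90213663, minus strand) and its paralogue Rps27l (chr9:66946071-66946100, plus strand, the first of its 2 windows) are shown as a pair of near-related genes in which the canonical gene alone carries the run.
Rps6: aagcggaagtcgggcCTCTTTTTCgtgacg
Rpl14: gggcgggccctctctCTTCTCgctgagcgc
Rps10: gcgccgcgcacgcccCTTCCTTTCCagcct
Rps27: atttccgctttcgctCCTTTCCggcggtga
Rps2: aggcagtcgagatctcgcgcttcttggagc
Rpl26: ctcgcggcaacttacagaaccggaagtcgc
Rps27l: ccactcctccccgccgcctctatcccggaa

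The run was found in 9 of the 37 members with a window (24.3%), among them 8 of 28 canonical genes (28.6%) and 1 of 9 others (11.1%). It was found in 1 of 18 genes of translation factors (5.56%) and in 813 of 27025 genes of the whole promoter table (3.01%). A match describes the letters at an annotated start, and no match says only that the letters are not there. Of the 8 canonical genes with the run, 3 differed among strains in the test given next, and of the 20 without it, 6 did. Among all named genes 28.9% did. Canonical genes without a window, among them Rpl29, Rpl30 and Rplp1, are in neither group. Whether the run goes with a difference among strains was not tested.

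Differences among strains were large in a few ribosomal protein genes and smaller in the rest. An F test across strains (limma, Benjamini-Hochberg adjusted p under 0.05 over all named genes) was passed by 15 of the 45 members (33.3%), beside 28.9% of all 20239 named genes. A share this near the background is no result about the family. A stricter rule asked for a log2 difference of at least 1, which is a doubling, and an adjusted p under 0.05 in at least 1 of the 36 strain pairs. It was met by 8 members (17.8%), beside 4.27% of all named genes. They were Rps6, Rps3a3, Rpl29, Rps2, Rpl34, Rpsa, Rpl26 and Rpl14. The median range, from the lowest to the highest strain mean, was 0.46 over the members, 0.54 over the canonical genes and 0.34 over all named genes. Without the C57L/J arrays, and likewise without C3H/HeJ replicate 2, the counts were again 15 and 8.

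**Figure D1:**
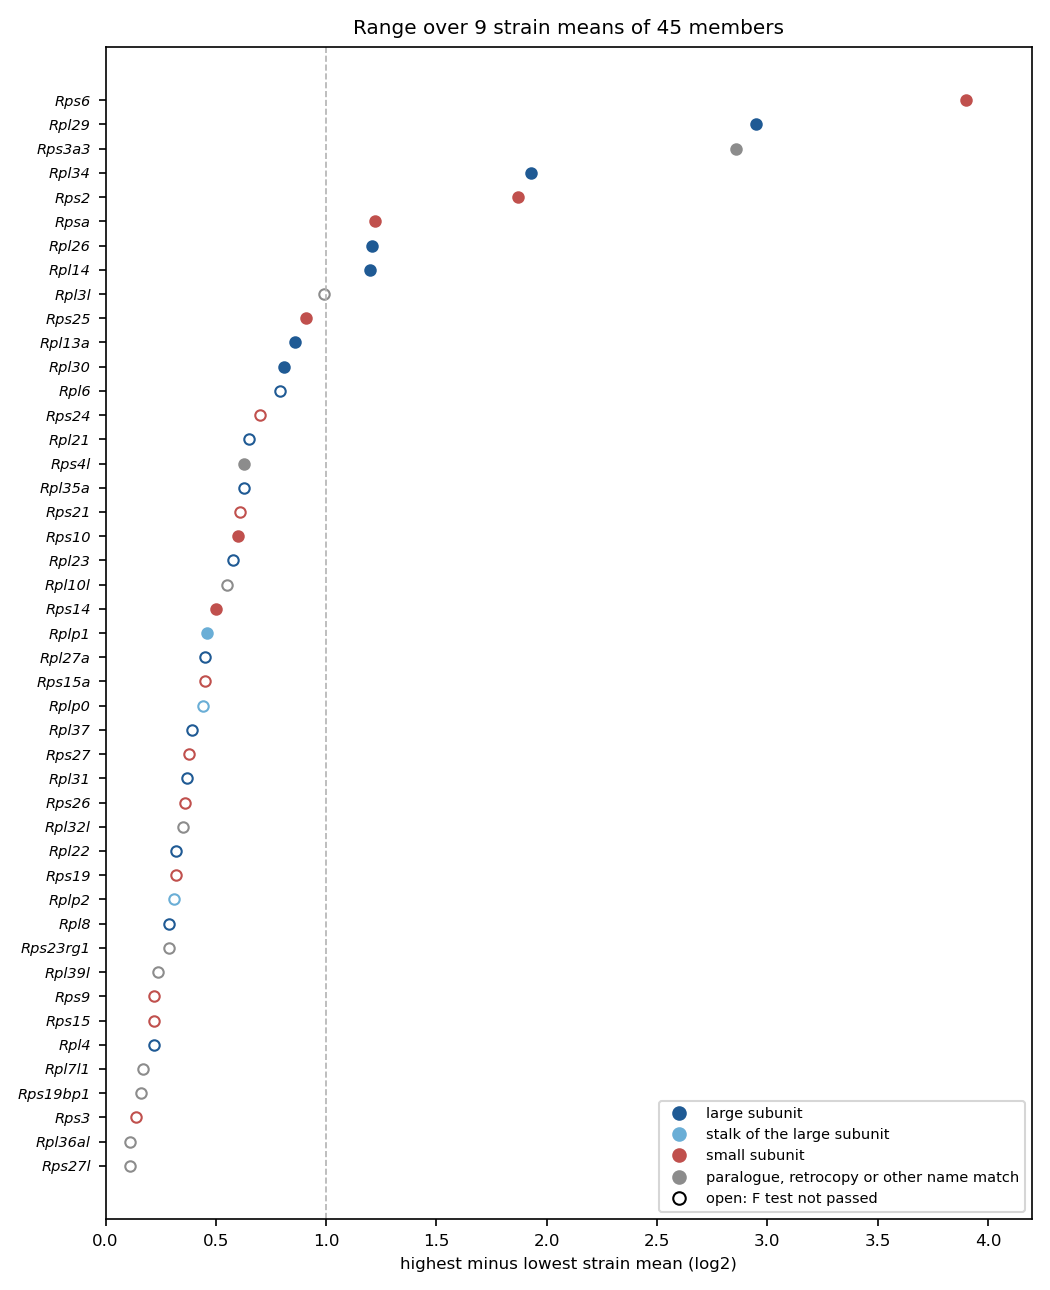
Range of the 9 strain means for each of the 45 members (highest minus lowest, log2), coloured by role; filled points passed the F test across strains and the dashed line marks a range of 1. Rps6, Rpl29 and Rps3a3 stand apart at 3.90, 2.95 and 2.86, and the 30 members that did not pass lie between 0.11 and 0.99.

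Of the 34 canonical genes 13 passed the F test (38.2%), beside 28.9% of all named genes. In a pair 7 were called (20.6%), beside 4.27%. In the large subunit 6 of 16 genes passed the F test and 4 were called in a pair, with a median range of 0.64. In the stalk 1 of 3 passed and 0 were called. In the small subunit 6 of 15 passed and 3 were called, with a median range of 0.50. Among the 11 other members 2 passed and 1 was called, with a median range of 0.29. Calls thus came from both subunits, and the test did not compare the roles with each other.

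The calls were concentrated in a few genes. The 8 members made 79 calls over the 36 pairs, and 53 of these belonged to Rps6 (21 pairs), Rps3a3 (18 pairs) and Rpl29 (14 pairs). Of the 21 pairs of Rps6, 3 set C3H/HeJ against BALB/cJ, C57L/J or DBA/2J, where both strain means lay in the background range described below. Rps2 was called in 8 pairs, Rpl34 in 7, Rpsa in 6, Rpl26 in 4 and Rpl14 in 1. At least 8 pairs were called for 4 members, beside 1.32% of all named genes. In a pair, 0 to 4 members were called, beside 0.351% to 0.983% of all named genes. The 6 pairs with 4 members included C57BL/6J in 4 cases and DBA/2J in 3.

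**Figure D2:**
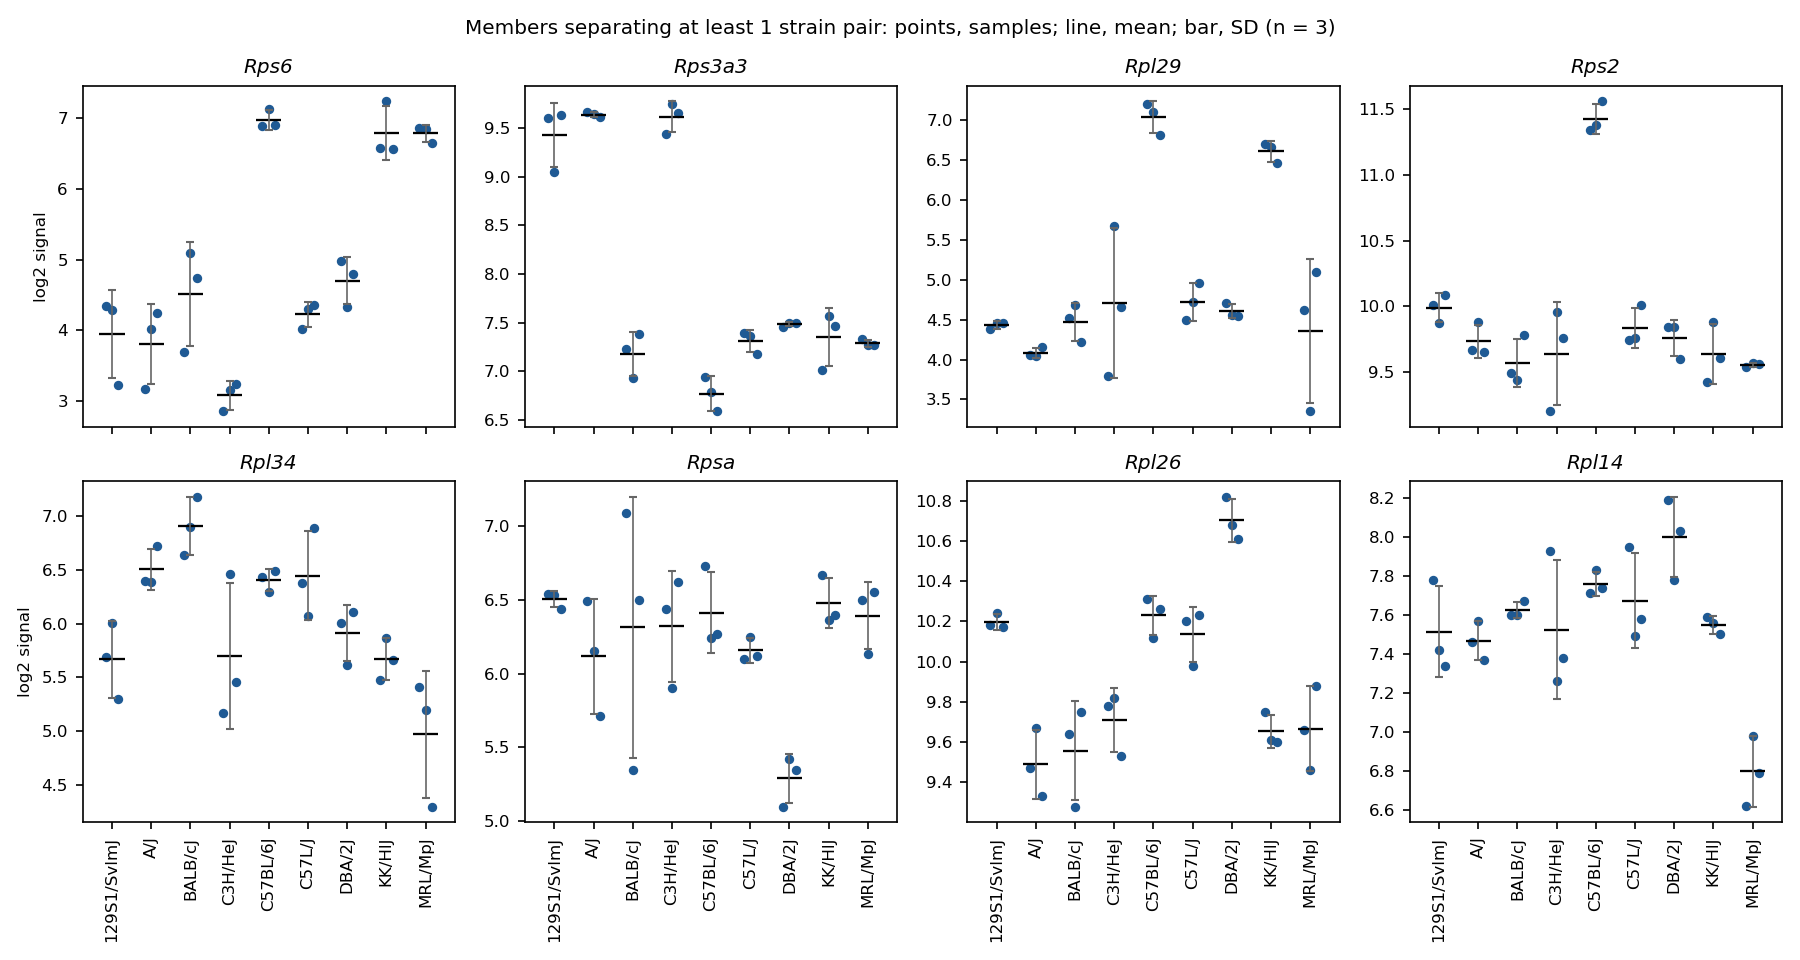
Log2 signal of the 8 members called in at least 1 strain pair, in each of the 27 arrays (points, with the strain mean as a line and the SD as a bar, n = 3). Rps6, Rps3a3 and Rpl29 fall into separate high and low groups of strains, Rps2 is high in C57BL/6J, Rpl26 is high and Rpsa low in DBA/2J, and Rpl14 is low in MRL/MpJ.

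Rps6 encodes the small subunit protein that the S6 kinases phosphorylate downstream of mTOR, and its tract is the first sequence printed above. Its log2 signal in replicates 1, 2 and 3 was 6.58, 7.24 and 6.56 in KK/HlJ, 6.86, 6.85 and 6.65 in MRL/MpJ, and 6.89, 7.14 and 6.91 in C57BL/6J. It was 4.98, 4.33 and 4.80 in DBA/2J, 3.69, 5.10 and 4.74 in BALB/cJ, and 4.02, 4.30 and 4.35 in the arrays labelled C57L/J. It was 4.34, 4.28 and 3.23 in 129S1/SvlmJ, 3.16, 4.01 and 4.24 in A/J, and 2.85, 3.15 and 3.24 in C3H/HeJ. The strains thus fell into a high and a low group with no overlap, since the lowest array of the 3 high strains (6.56) lay above the highest of the 6 low strains (5.10). The high strain means, 6.79 ± 0.39 (SD, n = 3) in KK/HlJ, 6.79 ± 0.12 in MRL/MpJ and 6.98 ± 0.14 in C57BL/6J, did not differ beyond their spread. C3H/HeJ was lowest at 3.08 ± 0.20. The strain means spanned 3.90, or 14.9-fold, with an adjusted F-test p of 7.33e-10 (limma). All low means (3.08 to 4.71) lay within the 2.50 to 5.25 spanned by the strain means of 7 Y-linked genes, which female lungs lack. The upper part of that range came from Sry alone, at 4.78 to 5.25. The other Y-linked genes reached at most 3.56, and of the low Rps6 means only that of C3H/HeJ lay below this. By its level alone, signal in that range cannot be told apart from background. The fold is therefore a ratio of signals and need not equal the difference in RNA. Whether it is too small or too large was not tested. An array signal depends on the amount of RNA and on how well it matches the probes, and differences among strains in probe sites or in related gene copies were not tested.

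Rpl29 encodes a small heparin-binding protein of the large subunit that mice can live without. Its signal was 7.20, 7.10 and 6.82 in C57BL/6J and 6.71, 6.66 and 6.46 in KK/HlJ. The other 21 arrays reached at most 5.68, which was C3H/HeJ replicate 2, and the lowest was 3.35, in MRL/MpJ replicate 2. C57BL/6J (7.04 ± 0.20, n = 3) and KK/HlJ (6.61 ± 0.13) were thus high and did not overlap the rest. The lowest strain was A/J at 4.09 ± 0.06, 7.72-fold below C57BL/6J, with an adjusted F-test p of 8.15e-07. As with Rps6, all low strain means, from 4.09 to 4.72, lay within the range of the Y-linked genes. Only Sry reached that level, since the other Y-linked genes had strain means of at most 3.56. MRL/MpJ was on the low side for Rpl29 and on the high side for Rps6, so the strains did not sort the same way for both genes.

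Rps3a3 is a copy of Rps3a that RefSeq lists as a pseudogene, and short probes may also read its relatives. Its signal was 9.60, 9.05 and 9.63 in 129S1/SvlmJ, 9.66, 9.64 and 9.61 in A/J, and 9.44, 9.75 and 9.65 in C3H/HeJ. The other 18 arrays lay between 6.59 and 7.57. The high group was thus made of 3 strains in which Rps6 was low, with no overlap. C57BL/6J was lowest at 6.77 ± 0.17 (n = 3), and A/J was highest at 9.64 ± 0.03, a 7.28-fold range with an adjusted F-test p of 2.92e-14. Unlike for Rps6 and Rpl29, the low strain means, from 6.77 to 7.49, lay above the range of the Y-linked genes. This was the smallest adjusted p among the members.

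Rps2, a small subunit protein at the entry of the messenger RNA channel, was high in C57BL/6J with values of 11.34, 11.38 and 11.56. The other 24 arrays lay between 9.20 and 10.09. C57BL/6J therefore stood alone, at 11.43 ± 0.12 (n = 3), beside strain means of 9.56 to 9.99 elsewhere. MRL/MpJ was lowest, 3.65-fold below C57BL/6J, with an adjusted F-test p of 1.30e-08. The 8 pairs in which Rps2 was called are those of C57BL/6J with each other strain.

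The remaining small subunit member called in a pair was Rpsa, which is needed to mature the small subunit and is also known as a laminin receptor. Its values were 5.10, 5.42 and 5.35 in DBA/2J, with a mean of 5.29 ± 0.17 (n = 3). The other strain means ran from 6.11 to 6.51, but BALB/cJ gave 7.09, 5.35 and 6.50, so its second array overlapped DBA/2J. The adjusted F-test p was 0.0313, the weakest among the 15 members that passed, and it was 0.16, 0.0776 and 0.0975 without DBA/2J replicates 1, 2 and 3. It was 0.0601 after quantile normalization and 0.0561 with an intensity trend. The difference of Rpsa among strains thus rested on DBA/2J and did not pass the test in these settings.

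Among large subunit genes, Rpl26, whose protein lies near the exit tunnel, was highest in DBA/2J at 10.82, 10.68 and 10.61. The next highest array was at 10.31, in C57BL/6J. The strains formed 3 steps: DBA/2J at 10.70 ± 0.11, then C57BL/6J, 129S1/SvlmJ and C57L/J at 10.23, 10.20 and 10.14, then the other 5 between 9.49 and 9.71. The range was 2.32-fold, from A/J (9.49 ± 0.17), with an adjusted F-test p of 2.29e-07. Here the same strain, DBA/2J, was highest that was lowest for Rpsa.

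Rpl14 was lowest in MRL/MpJ, at 6.62, 6.98 and 6.79, and highest in DBA/2J, at 8.19, 7.78 and 8.03. The other 7 strain means lay between 7.47 and 7.76. The lowest array outside MRL/MpJ was at 7.26, so MRL/MpJ did not overlap the rest. The range from 6.80 ± 0.18 to 8.0 ± 0.21 (n = 3) was 2.3-fold, with an adjusted F-test p of 1.62e-04. Rpl34 was likewise lowest in MRL/MpJ, at 5.41, 5.20 and 4.30, and highest in BALB/cJ, at 6.64, 6.90 and 7.18. Its other strain means, from 5.67 to 6.50, filled the space between, and C3H/HeJ alone spanned 5.17 to 6.46. The Rpl34 range was 3.82-fold with an adjusted F-test p of 2.98e-04. The MRL/MpJ mean of 4.97 ± 0.59 lay within the range of the Y-linked genes, at the level of Sry alone.

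A further 7 members passed the F test with ranges of 0.46 to 0.91 and were called in no pair. Rpl30, an RNA-binding protein of the large subunit, had 2 levels: strain means of 10.68 to 10.78 in KK/HlJ, DBA/2J, C3H/HeJ, C57L/J and C57BL/6J, and of 9.97 to 10.10 in MRL/MpJ, BALB/cJ, A/J and 129S1/SvlmJ. Its adjusted F-test p was 1.34e-06 (limma). The arrays of these groups just overlapped, at 10.38 in C57L/J and 10.41 in MRL/MpJ. Rpl13a, which leaves the ribosome in interferon-treated cells to repress translation, was lowest in the arrays labelled C57L/J, at 10.91, 10.66 and 11.01, beside strain means of 11.37 to 11.72 elsewhere. Its adjusted F-test p was 1.12e-05 (limma). Without those arrays its adjusted p was 0.0465. The C57L/J arrays thus carried much of the Rpl13a difference.

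Rplp1 belongs to the acidic stalk, the arm of the large subunit that recruits translation factors. It was highest in 129S1/SvlmJ, at 12.09, 12.15 and 12.04, and lowest in KK/HlJ, at 11.63 ± 0.06 (limma F test, adjusted p = 0.00332). Rps10 was also highest in 129S1/SvlmJ, at 8.49, 8.33 and 8.43, beside 7.82 to 8.12 as strain means elsewhere (adjusted p = 0.00534). In the same strain Rps25, which is needed for translation from some internal ribosome entry sites, was lowest at 6.28, 6.73 and 6.31, beside strain means of 6.92 to 7.34 (adjusted p = 0.00438). These 3 genes thus set 129S1/SvlmJ apart in opposite directions. Rps14, whose loss of a copy underlies the anaemia of a myelodysplastic syndrome, was lowest in KK/HlJ at 9.63, 9.64 and 9.71 and highest in MRL/MpJ at 10.16 ± 0.08 (adjusted p = 5.78e-04). Rps4l, listed by RefSeq as a transcribed pseudogene, ran from 6.21 ± 0.13 in A/J to 6.84 ± 0.10 in C57BL/6J (adjusted p = 0.00464).

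The other 30 members did not pass, with ranges of 0.11 to 0.99 and a median of 0.35. The stalk genes Rplp0 and Rplp2 had ranges of 0.44 and 0.31. In the large subunit, Rpl4, Rpl8, Rpl22 and Rpl31 had ranges of 0.22, 0.29, 0.32 and 0.37, and Rpl37, Rpl27a, Rpl23, Rpl35a, Rpl21 and Rpl6 had ranges of 0.39, 0.45, 0.58, 0.63, 0.65 and 0.79. In the small subunit, the range was 0.14 for Rps3, which also acts in DNA repair, and 0.32 for Rps19, the gene most often mutated in Diamond-Blackfan anaemia. Rps9 and Rps15 had a range of 0.22 each, Rps26 of 0.36, Rps15a of 0.45, Rps21 of 0.61 and Rps24 of 0.70. A test that was not passed does not show that these genes were equal among strains.

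The 11 paralogues, retrocopies and other name matches had ranges from 0.11 to the 2.86 of Rps3a3. Rps27l, a p53-inducible paralogue of Rps27, and Rpl36al each had a range of 0.11, with adjusted F-test p of 0.964 and 0.993. Rps27 itself ran from 6.80 in A/J to 7.18 in BALB/cJ (adjusted p = 0.121), while Rps27l stayed between 7.47 and 7.58. Neither passed the test, and the ranges of the pair were not compared by a test. The next largest adjusted p after Rps27l were 0.839 for Rps15, 0.829 for Rps19bp1 and 0.788 for Rplp2. Rps19bp1, Rpl7l1, Rps23rg1, Rpl32l and Rpl10l had ranges of 0.16, 0.17, 0.29, 0.35 and 0.55. Rpl39l, a paralogue known from male germ cells, ran from 2.88 to 3.12 and was the 1 member whose strain means all lay within the range of the Y-linked genes.

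Rpl3l, a paralogue of Rpl3 made in skeletal muscle and heart, was read at 4.81, 6.61 and 4.48 in C3H/HeJ, beside strain means of 4.31 to 4.62 elsewhere. A single library was thus high, C3H/HeJ replicate 2. In that library the 8 skeletal muscle markers had their mean level of 9.43, whereas the other 26 arrays lay between 4.97 and 5.50. Against the mean of the other 8 strains, C3H/HeJ was higher by 0.83 (SE 0.23, adjusted p = 0.0262, limma). Without replicate 2 the difference was 0.18 with an adjusted p of 0.5.

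**Figure D3:**
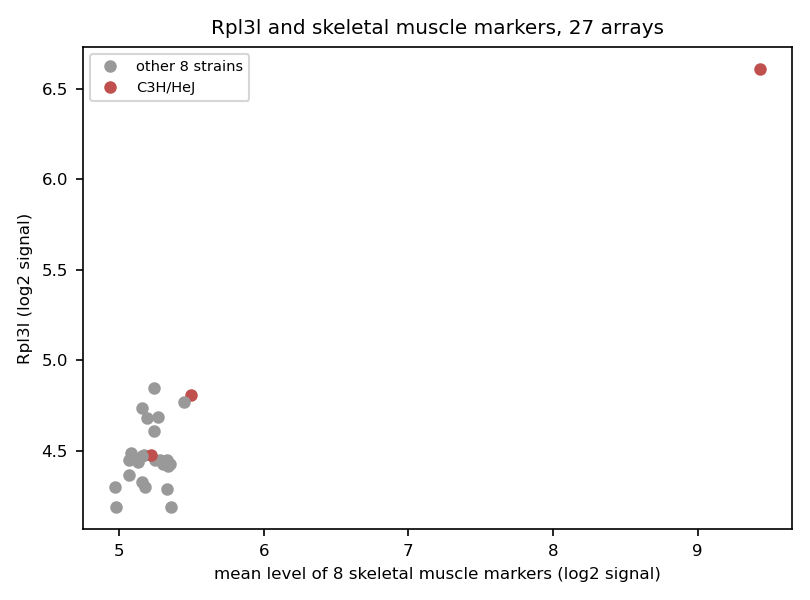
Log2 signal of Rpl3l in each of the 27 arrays against the mean log2 level of 8 skeletal muscle markers in the same array; red points are C3H/HeJ. C3H/HeJ replicate 2 lies alone, at 6.61 for Rpl3l and 9.43 for the markers, and the other 26 arrays lie together at marker levels of 4.97 to 5.50.

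Each strain was then set against the mean of the other 8 (limma, adjusted p under 0.05). Over 9 strains there were 53 calls, made by 17 members, and 28 members were called in no strain. Per strain, 1.94% to 6.83% of all named genes were called in 1 direction. The share of all named genes called in at least 1 strain was not computed, so the 17 are no result about the family. The median size of the members' called differences was 0.67, and 17 of their calls reached a size of 1. Rps3a3 was called in 9 strains, Rpl30 in 8, Rpl26 and Rps6 in 7 each, and Rpl29 and Rps2 in 3 each. The 9 contrasts share samples, so a high strain also makes the others lower: the calls are not independent. For Rps6 in 129S1/SvlmJ, A/J, C3H/HeJ and C57L/J and for Rpl29 in A/J, the strain's mean lay within the range of the Y-linked genes. There the mean of the others was raised by the high strains. The sizes printed for those falls therefore do not measure a lower level in that strain than in the other low strains. The same holds for the falls of Rps3a3, where the mean of the others was raised by 3 high strains. DBA/2J, called lower, had the highest Rps3a3 mean of the low strains (7.49). It also holds for the falls of Rps2 in BALB/cJ and MRL/MpJ, where C57BL/6J (11.43) raised the mean of the others. The falls of Rpl26 and Rpl30 are read the same way. Their higher strains, such as DBA/2J (10.70 and 10.78), raised the mean of the others.

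**Figure D4:**
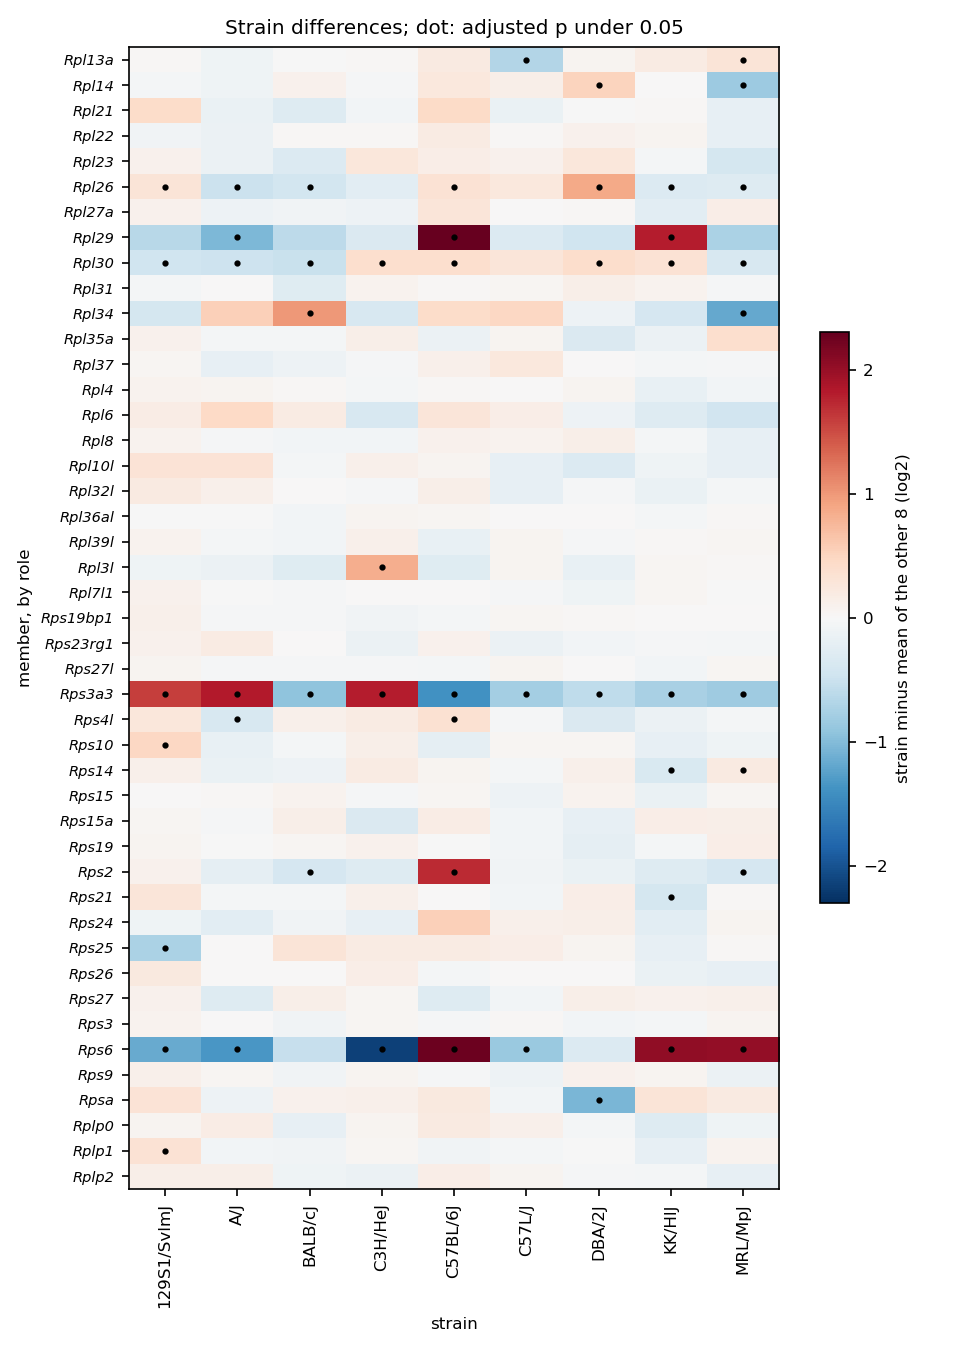
Difference of each strain from the mean of the other 8 (log2, colour scale) for the 45 members, ordered by role; a dot marks an adjusted p under 0.05. Dots gather on Rps3a3, Rpl30, Rpl26 and Rps6, and strong colours include Rpl29, Rps6 and Rps2 in C57BL/6J, Rps6 and Rpl29 in KK/HlJ, Rps6 in MRL/MpJ and C3H/HeJ, and Rps3a3 in A/J, C3H/HeJ and 129S1/SvlmJ.

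C57BL/6J was the strain with the most members higher. There 6 members were higher and 1 lower, beside 4.06% and 4.11% of all named genes. Rpl29 was higher by 2.29 (SE 0.25, adjusted p = 1.34e-06), Rps6 by 2.25 (SE 0.23, 5.49e-07) and Rps2 by 1.71 (SE 0.11, 1.54e-10), with all 3 C57BL/6J arrays above every array of at least 6 other strains for each gene. Rpl30, Rps4l and Rpl26 were higher by 0.39, 0.35 and 0.34, and Rps3a3 fell by 1.39 (SE 0.11, adjusted p = 4.55e-09). The median difference was 0.10 over the members and 0.17 over the canonical genes, beside -0.05 over all named genes. In the same arrays all 5 measured cell cycle markers were called higher, with mean levels of 6.72 to 6.97 beside 5.64 to 6.60 in the other strains; their part in the result was not tested. In bulk lung, more cells of a type and more RNA per cell cannot be told apart.

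On single arrays the median deviation of the 34 canonical genes was 0.18, 0.08 and 0.13 in C57BL/6J and between -0.15 and 0.10 in the other strains. Of the other 24 arrays, 3 reached 0.08 or more. The C57BL/6J arrays were thus at the upper end without standing clear of the rest, and these shifts are small beside the ranges of Rps6 or Rpl29.

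**Figure D5:**
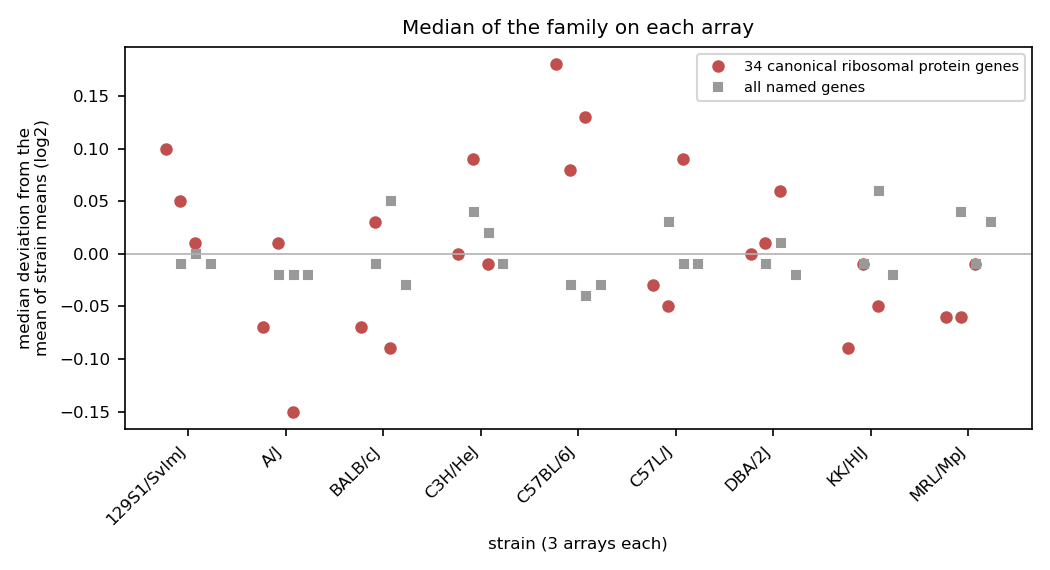
Median deviation of the 34 canonical ribosomal protein genes from their mean over strains, on each array (red, log2), with the same median over all named genes (grey). The C57BL/6J arrays lie at 0.08 to 0.18 and the other strains between -0.15 and 0.10.

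In KK/HlJ, Rps6 and Rpl29 were high as in C57BL/6J. Rps6 was higher by 2.04 (adjusted p = 1.88e-06), Rpl29 by 1.81 (3.19e-05) and Rpl30 by 0.34, so 3 members were higher, beside 4.55% of all named genes. Another 4 were lower, beside 2.83%: Rps3a3 fell by 0.74, Rps21 by 0.41 (adjusted p = 0.02), Rps14 by 0.35 (4.21e-04) and Rpl26 by 0.31. The call of Rps21 was lost without KK/HlJ replicate 1 (adjusted p = 0.117) or 2 (0.204) and with array weights (0.0783).

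In MRL/MpJ, 3 members were higher and 6 lower, beside 6.83% and 5.61% of all named genes. Rps6 was higher by 2.03 (adjusted p = 3.91e-06), Rpl13a by 0.29 (0.00868) and Rps14 by 0.21. Rpl34 fell by 1.18 (7.82e-04), Rpl14 by 0.84 (2.19e-05), Rps3a3 by 0.81, Rps2 by 0.39, Rpl30 by 0.36 and Rpl26 by 0.29. Structural proteins of both subunits were thus called in both directions. Without MRL/MpJ replicate 1 or 3 the adjusted p of Rpl13a was 0.0589 or 0.127. Without C3H/HeJ replicate 2, 12 members were called, 3 higher and 9 lower, and without the C57L/J arrays 8, with 3 higher and 5 lower.

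In 129S1/SvlmJ, 4 members were higher and 3 lower, beside 3.54% and 6.43% of all named genes. Rps3a3 was higher by 1.59 (adjusted p = 6.14e-10), Rps10 by 0.47 (8.57e-04), Rplp1 by 0.33 (4.81e-04) and Rpl26 by 0.30. Rps6 fell by 1.16 (0.00202), Rps25 by 0.73 (3.50e-04) and Rpl30 by 0.45. Without 129S1/SvlmJ replicate 3 the adjusted p of Rps6 was 0.0702. In these arrays 4 of 6 measured B cell markers and 4 of 5 cell cycle markers were called lower, with mean levels of 6.13 to 6.48 and of 5.64 to 5.78; their part in the result was not tested. The other strains spanned 6.21 to 7.72 for the B cell markers, with MRL/MpJ (3 of 6 lower) at 6.21 to 6.43.

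In A/J, 1 member was higher and 5 lower, beside 1.96% and 3.75% of all named genes. Rps3a3 was higher by 1.83 (adjusted p = 6.48e-11). Rps6 fell by 1.33 (7.33e-04), Rpl29 by 1.03 (0.0139), Rpl26 by 0.49, Rpl30 by 0.47 and Rps4l by 0.37. The call of Rpl29 was lost when A/J replicate 1, 2 or 3 was left out, with adjusted p of 0.0789, 0.0987 and 0.0603. In BALB/cJ, 1 member was higher and 4 lower, beside 2.48% and 3.01%. Rpl34 was higher by 1.00 (adjusted p = 0.00482, and 0.063 without BALB/cJ replicate 3), while Rps3a3 fell by 0.93 (5.96e-06), Rpl30 by 0.51 (0.00124), Rpl26 by 0.42 and Rps2 by 0.38. Both strains thus had Rpl30 and Rpl26 on the low side, as did MRL/MpJ, and KK/HlJ for Rpl26 only.

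In C3H/HeJ, 3 members were higher and 1 lower, beside 4.18% and 3.08% of all named genes. Rps3a3 was higher by 1.81, Rpl3l by 0.83 and Rpl30 by 0.39, and Rps6 fell by 2.14 (adjusted p = 1.90e-06). Without replicate 2, which held the muscle and adipocyte markers, 3 members were called, 1 higher and 2 lower. In DBA/2J, 3 members were higher and 2 lower, beside 2.87% and 1.94%. Rpl26 was higher by 0.87 (5.57e-07), Rpl14 by 0.51 (0.00628) and Rpl30 by 0.40, whereas Rpsa fell by 1.05 (0.00267) and Rps3a3 by 0.58 (0.00144). The call of Rpl14 in DBA/2J was lost without replicate 1 (adjusted p = 0.125) or 3 (0.0583), and without either of these libraries 3 members were called, 1 higher and 2 lower. Without the C57L/J arrays, 6 members were called in DBA/2J, 3 in each direction.

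In the arrays labelled C57L/J, 0 members were higher and 3 lower, beside 3.69% and 2.94% of all named genes. Rpl13a fell by 0.67 (adjusted p = 6.39e-07), Rps3a3 by 0.78 and Rps6 by 0.85 (0.0271). The call of Rps6 was lost when replicate 1, 2 or 3 of this strain was left out, with adjusted p of 0.204, 0.0767 and 0.0792. C57L/J was close to the mean of the other strains for most of the family, with a median difference of 0.01 over the members. In the other strains except C57BL/6J, the median over the members lay between -0.05 in BALB/cJ and KK/HlJ and 0.09 in 129S1/SvlmJ.

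The members were weakly correlated with each other, and no test was made of this. Over the 9 strain means the mean pairwise correlation was 0.09 among the 45 members and 0.09 among the canonical genes, beside 0.03 over all named genes. Among the large subunit and stalk genes it was 0.18, and in the small subunit 0.05. Within strains, over 27 arrays, it was 0.05 among the members, 0.07 among the canonical genes and 0.04 over all named genes. Among 27 translation factors it was 0.07 over the strain means and 0.11 within strains. Of the members that passed the F test, the most alike pair over the 9 strain means was Rplp1 and Rps10 (r = 0.88), followed in size by Rps6 and Rps3a3 (r = -0.74), Rps6 and Rpl29 (0.69) and Rpl29 and Rps2 (0.68). These values describe 9 points from shared arrays and carry no test.

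Each of the 8 called members has a nearest measured gene on either side in the RefSeq order, 16 in all. Of these, 15 had ranges of 0.16 to 0.63 and were called in no pair, although Acer2, Rnf222 and Ostc passed the F test. The exception was Rab3c, a vesicle transport gene next to Rps3a3, with a range of 1.58 and calls in 5 pairs. A count of 1 in 16 is read beside the 4.27% of all named genes called in a pair, and shows nothing particular to these neighbours. Its correlation with Rps3a3 over the 9 strain means was 0.25.

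Of the 11 pseudogene entries with -ps that the rule left out, 4 passed the F test (36.4%, beside 28.9% of all named genes) and 1 was called in a pair (beside 4.27%), with a median range of 0.49. Rpl31-ps21 was called in 19 pairs, with MRL/MpJ lowest at 5.0 and C57L/J highest at 8.0 (adjusted p = 5.74e-09). Rps18-ps6 ran from 11.30 to 12.18 (6.08e-09), and Rps19-ps3 (1.53e-05) and Rpl34-ps2 (5.89e-05) also passed. Rpl31 and Rps19, members for whose sequence 2 of these entries are named, had ranges of 0.37 and 0.32, while Rpl34 had a range of 1.93. Whether probes named for a gene also read its copies was not tested.

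Lists of genes that work with the ribosome are read beside all named genes, of which 28.9% passed the F test, 4.27% were called in a pair and the median range was 0.34. Of 27 measured translation factors and ribosome-associated genes, 5 passed the F test and 0 were called in a pair, with a median range of 0.25. Eef1a1, the elongation factor that brings transfer RNA to the ribosome, ran from 11.87 in C57L/J to 12.79 in DBA/2J (adjusted p = 5.66e-08). Eif3m, an initiation factor subunit, ran from 6.96 in C3H/HeJ to 7.81 in C57BL/6J (3.11e-04). Among 32 ribosome biogenesis genes 9 passed and 0 were called, with a median range of 0.30. Among 13 measured genes of tract-dependent translation and S6 kinase control, 2 passed and 0 were called, with a median range of 0.28. No gene of these 3 lists thus met the rule for a strain pair, and their median ranges lay near that of all named genes.

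Marker lists of other cells ranged from few to many calls. Of 6 measured B cell markers 5 passed the F test and 4 were called in a pair, and of 5 cell cycle markers 5 passed and 4 were called. Of 7 T cell markers 2 passed and 0 were called. Of 8 skeletal muscle markers 0 passed and 2 were called, of 7 adipocyte markers 0 passed and 3 were called, and of 3 erythroid markers 0 passed and 0 were called. The mean level of the muscle markers was high in C3H/HeJ replicate 2 alone. That of the adipocyte markers was highest in C3H/HeJ replicate 2 (8.56), followed by C57L/J replicate 3 (7.70), 129S1/SvlmJ replicate 3 (7.19) and A/J replicate 1 (7.09), and lowest in KK/HlJ replicate 3 (5.44). Their part in the members' differences was tested only by leaving out C3H/HeJ replicate 2 and the C57L/J arrays, as given above.

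The labels also allow the strains to be compared by adenoma class, with the 9 strain means as the units. By severity (7 strains increased, 2 decreased), 0 of 45 members were called, beside 0.0% of all named genes higher and 0.00988% lower (limma, Benjamini-Hochberg). At an unadjusted p under 0.05 there were 7 members (15.6%), beside 7.04% of all named genes, and the smallest adjusted p was 0.624. The median difference, increased minus decreased, was 0.06 over the members and -0.03 over all named genes. The strain means of the classes did not overlap for 2 members (4.44%), beside 6.69% of all named genes.

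The member with that smallest adjusted p was Rps6, with a log2 difference of -2.33, increased minus decreased (SE 0.76). Its mean was 4.46 ± 1.23 (SD, n = 7 strains) in the increased class and 6.79 in each of the 2 decreased strains. C57BL/6J, classed as increased, was higher than both decreased strains at 6.98, so the classes overlapped. With all 27 arrays and the strain as a random block the adjusted p was 0.0279, and Rps6 was the only member called in that setting. That fit counts the arrays of a strain as partly separate units, although the class belongs to the strain. Rps26, whose protein contacts messenger RNA at the exit of the small subunit, did not overlap between classes, at 11.53 ± 0.09 against 11.33 ± 0.02, with a difference of 0.20 (SE 0.07, adjusted p = 0.676). The next members by p, Rpl34 and Rpl6, had differences of 0.90 (SE 0.32) and 0.42 (SE 0.16).

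By frequency (3 strains increased, 6 decreased), 0 members were called, beside 0.0% of all named genes in either direction. There were 2 members (4.44%) at an unadjusted p under 0.05, beside 7.7% of all named genes, the smallest adjusted p was 0.647, and 0 members were without overlap, beside 3.92%. The members with the smallest p were Rpl35a, Rps27, Rpsa and Rpl39l, with differences of -0.22, -0.20, -0.42 and -0.11. None of these passed the test. Between the 3 strains increased in both and the 2 decreased in both, 0 members were called, beside 0.0% higher and 0.00494% lower. There were 5 (11.1%) at an unadjusted p under 0.05, beside 8.62%, and 11 without overlap (24.4%), beside 27% of all named genes. The smallest adjusted p was 0.529, for Rpl6, with a difference of 0.51 (SE 0.18), increased minus decreased. Rpl14, Rplp0 and Rpl34 followed with differences of 0.57 (SE 0.21), 0.26 (SE 0.11) and 0.95 (SE 0.38). The family thus gave no called difference by adenoma class in these fits, and the members without overlap were no larger a share than among all named genes in any of the 3 comparisons.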

How the data were processed

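Right lung RNA of 9 strains was measured on 27 arrays. The values are log2 signals in the table deposited by the authors, made with affy per the submitters' processing notes (version not given). The normalization and genome build are not given in the sources used here. Values ran from 1.78 to 13.35 and array medians from 6.24 to 6.37. Probe sets were named from the platform annotation: 20239 had 1 symbol, and the other 986, without a single symbol, were not tested. limma 3.58.1 in R 4.3.3 fitted strain means (lmFit, eBayes) over all named genes with Benjamini-Hochberg adjustment: an F test over 9 strains, the 36 pairs (adjusted p under 0.05 and a log2 difference of at least 1), each strain against the mean of the other 8, and adenoma classes on the 9 strain means. The number of arrays limits the precision. The scripts were tested on simulated data. The rule for named members took the 12 called in the most pairs, up to 2 in each direction per strain, up to 4 by adenoma class, the 5 with the largest F-test p and paralogue pairs; any member may be given by its range, and the other called members were named after their values were seen. The members and lists were chosen with earlier results of these data known. Alternatives were normalization, centring, dim-probe filters, array weights, trend, blocks, thresholds and leaving out each array or C57L/J. Gene neighbours and start windows came from RefSeq (GRCm38.p6), whose gene coordinates are not tied to the probes. Protein sequences were not used here.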

Additional observations from a re-analysis of the deposited data

Results flagged for a closer look

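Among 33 groups of 4 or more strain means by adenoma class that were tested for a value far from the others, 4 held one. Chance would give about 5% of groups if they were independent. The groups share strains, and the members flagged were among those with the smallest p by adenoma class in the same strain means. The count therefore cannot be read against that rate. Rps6 stood high in C57BL/6J (6.98) among the 7 strains of increased severity, where the nearest strain was at 4.71 and the lowest at 3.08. Rpsa stood low in DBA/2J (5.29) among the same strains, with the nearest at 6.11 and the highest at 6.51. Rpl14 stood low in MRL/MpJ (6.80) among the 6 strains of decreased frequency, with the nearest at 7.51 and the highest at 7.67. Rpl6, a large subunit protein, stood low in C3H/HeJ (5.58) among the 4 strains of increased severity and decreased frequency, with the nearest at 6.04 and the highest at 6.07.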

How the results depend on the processing

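Of 206 recomputed counts and medians, 191 stayed within 1.5 times the reported count or within the spread between samples, and 15 moved. Quantile normalization gave DBA/2J a median member difference of -0.02, as did leaving out the C57L/J arrays, and median centring gave 129S1/SvlmJ 0.12. With array weights 2 members were called in C3H/HeJ, 14 in C57BL/6J (12 higher and 2 lower) and 4 in KK/HlJ, and 19 passed the F test. With 27 arrays and strain as a random block 1 member was called by severity. A pair difference of at least 0.5 gave 17 members, and no minimum gave 24. Without a minimum, 834 to 3341 named genes were called in a single pair. Shares of all named genes with at least 1 such pair, or for the other recomputed counts, were not computed. The member counts recomputed here are therefore no result about the family. With a strain difference of at least 0.5, the counts were 3 in 129S1/SvlmJ, A/J, BALB/cJ and KK/HlJ and 4 in C57BL/6J and MRL/MpJ. Leaving out 1 array at a time gave 14 to 19 members in the F test and 8 to 9 in pairs. The counts by strain were then 3 to 5 in BALB/cJ (3 without its replicate 2), 3 to 6 in DBA/2J (3 without replicate 1 or 3) and 4 to 9 in KK/HlJ (4 without replicate 1 or 2). Median member differences were then -0.07 to -0.03 in BALB/cJ, -0.02 to 0.01 in DBA/2J and -0.13 to -0.01 in KK/HlJ. The cause of these moves was not tested. Replicate numbers gave no sign of pairing the samples across strains. The 108 same-numbered pairs had a mean correlation of deviations of 0.00, and 24 were above 0.1. The 216 differently numbered pairs had a mean of 0.00, and 48 were above 0.1. With the replicate block 15 members passed the F test, 8 were called in pairs, and DBA/2J had 6. Of 2001 values of named members 1978 kept their direction and their side of the threshold, 22 no longer passed, 1 newly passed, and 0 reversed. Low signal limits the strain means of 6 members that fall within the range of the Y-linked genes, whose upper part was set by Sry alone.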
